A study of Drosophila melanogaster with 17 samples.

Results

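The heads of young orco2 flies were compared with those of w1118 flies of the same age. The comparison rests on 4 of the 17 RNA libraries of the study, chosen by their labels as head libraries of day 3, with 2 of orco2 and 2 of w1118, and it is described across all genes. Flies of both strains were mated males of Drosophila melanogaster, kept 20 to a vial at 25 °C and 60% humidity with 12 h of light and 12 h of darkness, and heads were taken at ZT8, that is 8 h after lights on. The orco2 flies carry a mutant allele of Orco, and the w1118 flies, called wild type by the study, lack white function. The study also holds 2 libraries of each strain from heads of day 40, which entered the same fit, and 9 gut libraries, which are not used here. Its title names the question of how olfactory neurons act on circadian rhythm. No label gives a crossing scheme between the 2 stocks or the number of heads in a library, so differences between the stocks at other loci cannot be told apart from those made by the Orco allele.

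Orco is the co-receptor that most odorant receptors of insects need to reach the dendrite and to form a channel, and neurons without it do not respond to most odours. The circadian clock of the fly is a loop in which CLK and CYC activate per and tim, whose proteins return to the nucleus to repress that activation. In further loops, vri and Pdp1 act on Clk itself and cwo restrains the targets of CLK and CYC. The same clock runs in the brain neurons that time behaviour, in glia, in photoreceptors, in the fat body of the head and in the antenna, and all of these contribute RNA to a whole head.

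The orco2 libraries held 29447898 and 27082849 counts, and the w1118 libraries 30077774 and 31560513. On the log2 scale the 2 orco2 libraries correlated at 0.9593 over genes, the 2 w1118 libraries at 0.9877, and libraries of different strains at 0.9433 to 0.9517. At a mean of at least 5 CPM (counts per 1e+06 counts, scaled by the TMM method), 156 genes were more than 2-fold higher and 170 more than 2-fold lower in orco2 replicate 1 than in orco2 replicate 2, while 11 and 14 genes were that far apart in w1118. Orco2 replicate 1 stood apart by gut transcripts: 40 genes of digestive enzymes summed to 793 CPM in it and to 18.6 CPM in orco2 replicate 2, against 22.1 and 26.5 CPM in w1118. Of these 40 genes, 27 and 12 had a count in the orco2 libraries, against 13 and 13 in w1118, and 0 of the 19 tested passed the test. The trypsin genes alphaTry (3655 and 0 counts in orco2, 0 and 0 in w1118) and betaTry (4840 and 0, against 0 and 0), the mucin gene Muc68D (19317 and 0, against 0 and 4) and the uncharacterised genes CG34220 (62614 and 7, against 40 and 38), CG34324 (36235 and 0, against 0 and 0) and CG3906 (5605 and 0, against 0 and 0) had the widest gaps between the orco2 libraries. Among the 6 genes with the widest gaps between the w1118 libraries were the oenocyte hydrocarbon gene Cyp4g1 (5160 and 26 counts in orco2, 218 and 16 in w1118) and the ribosomal RNA pseudogene 28SrRNA-Psi:CR45860 (30 and 756 counts in orco2, 436 and 65 in w1118). The counts below are therefore also given without each library in turn.

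Markers of head tissues were present in all 4 libraries. The neuron list, with elav among its 18 genes, summed to 17253 and 13258 CPM in orco2, against 16221 and 16435 CPM in w1118. The glia list summed to 2377 and 2578 CPM in orco2, against 2293 and 2515 CPM in w1118, and the muscle list to 10641 and 9839 CPM in orco2, against 10435 and 11042 CPM in w1118. Sums of the testis list lay between 6.78 and 7.85 CPM in all 4 libraries. Those of the accessory gland list were 54.1 and 172 CPM in orco2, against 202 and 144 CPM in w1118. Most of that sum was Obp56g (48.9 and 171 CPM in orco2, 201 and 143 CPM in w1118). Among its genes too low to test, Acp36DE had 73 and 0 counts in orco2 and 4 and 0 in w1118. Mst57Dc had 10 and 0, against 0 and 0, and Mst57Da and Acp26Aa each had 8 and 0, against 0 and 0. Acp62F had 10 and 0, against 4 and 0. Of the genes too low to test, only Acp98AB had more counts in orco2 replicate 2 than in replicate 1 (0 and 4, against 0 and 2). Of the Malpighian tubule list, Fst had 9 and 0 counts in orco2 and 2 and 0 in w1118. Also too low to test, salt and Smvt each had 6 and 0, against 0 and 0. Oatp58Db had 6 and 0, against 4 and 0, and Uro had 0 throughout. Among the tested genes of that list, Oatp58Dc, Irk3 and ZnT35C had more counts in orco2 replicate 2 than in replicate 1, and NaPi-T had fewer. The photoreceptor list (69623 and 66172 CPM in orco2, 50949 and 54299 CPM in w1118) and the fat body list (5872 and 8176 CPM in orco2, 2095 and 2619 CPM in w1118) did not overlap between the strains, and they are taken up again with the genes of those tissues.

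**Figure D1:**
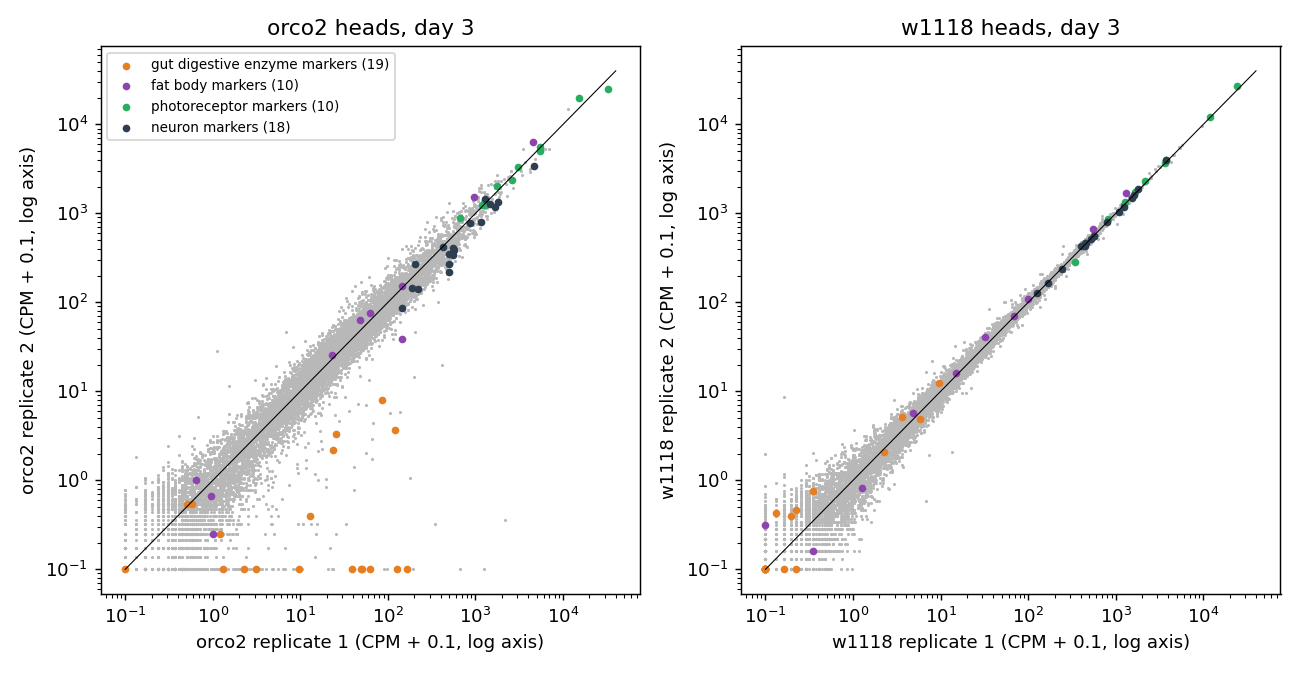
Level of each gene in the 2 libraries of orco2 (left) and of w1118 (right), in CPM plus 0.1 on log axes, with 4 marker lists in colour and the line of equality. Gut digestive enzyme genes lie far below the line in orco2, where orco2 replicate 1 held 793 CPM of that list and orco2 replicate 2 held 18.6 CPM, and the w1118 libraries lie closer to the line.

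The targeted gene was read first. Orco (FBgn0037324, chromosome 3R, 5407183 to 5412406, BDGP6) had 45 and 46 counts in the orco2 heads and 251 and 205 in the w1118 heads. Its level was thus 1.63 ± 0.123 CPM in orco2 against 6.997 ± 1.14 CPM in w1118 (SD, n = 2 each), and it fell by 2.10 ± 0.28 on the log2 scale (log2 fold change ± SE, adjusted p = 0.00427, and 0.0525 without w1118 replicate 1). The transcript was not at 0 in orco2, and fewer cells of a type and less RNA per cell cannot be told apart in whole heads. The gene w (FBgn0003996), which encodes an ABC transporter for precursors of eye pigment, had 934 and 851 counts in orco2 and 1 and 0 in w1118. Its level was 2086-fold higher in orco2 (exact 95% interval 374 to 82419, adjusted p of the fit 1.83e-05). The orco2 allele is known as a gene replacement that carries a white marker gene, and reads of the marker and of the resident gene cannot be told apart here. The strains thus differ in w as well as in Orco, and the part of each in the differences below, as in eye genes, cannot be told apart. Neither gene went against the label of any of the 4 libraries. All p-values are from edgeR's quasi-likelihood test, adjusted by Benjamini-Hochberg over all tested genes with a threshold of 0.05, and, with nothing said of how replicates were made, they reflect library to library spread that may be technical. An exact permutation test of 2 libraries against 2 cannot go below p = 0.333, so none is given. Intervals cover counting error only.

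Of 12243 genes tested, 891 changed (7.28%), 594 higher in orco2 (4.85%) and 297 lower (2.43%). Counts of group members below are to be read beside these shares, and those from a fit without 1 library beside that fit's shares. The change was at least 2-fold on 444 of the higher genes and 183 of the lower ones, and the median log2 fold change was 1.62 among the higher and -1.31 among the lower, beside 0.0147 over all tested genes. The libraries of the 2 strains did not overlap for any of the 891, and for 49.2% of all tested genes. Calls were made at every level of expression: in 4 classes of equal size by mean CPM, low to high, 4.54, 9.18, 8.3 and 7.09% of genes changed. Protein-coding genes changed in 7.2% of cases, non-coding RNA genes in 7.56% and transposon insertions in 8.33%. The count was 3246 without orco2 replicate 1 (25.1%, with 13.4% of genes higher and 11.7% lower), 1172 without orco2 replicate 2 (9.02%, with 5.11% and 3.91%), 278 without w1118 replicate 1 (2.14%, with 1.35% and 0.793%) and 345 without w1118 replicate 2 (2.66%, with 1.8% and 0.855%). Of the 891, 739 were called also without either orco2 library, and 245 in all 4 fits that leave out 1 library. A gene of that last class is described below as called in every leave-one-out fit. Among the 123 changed genes named by the rule for this text, 1 lost its call without orco2 replicate 1 and 9 without orco2 replicate 2, while 69 lost it without w1118 replicate 1 and 56 without w1118 replicate 2.

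**Figure D2:**
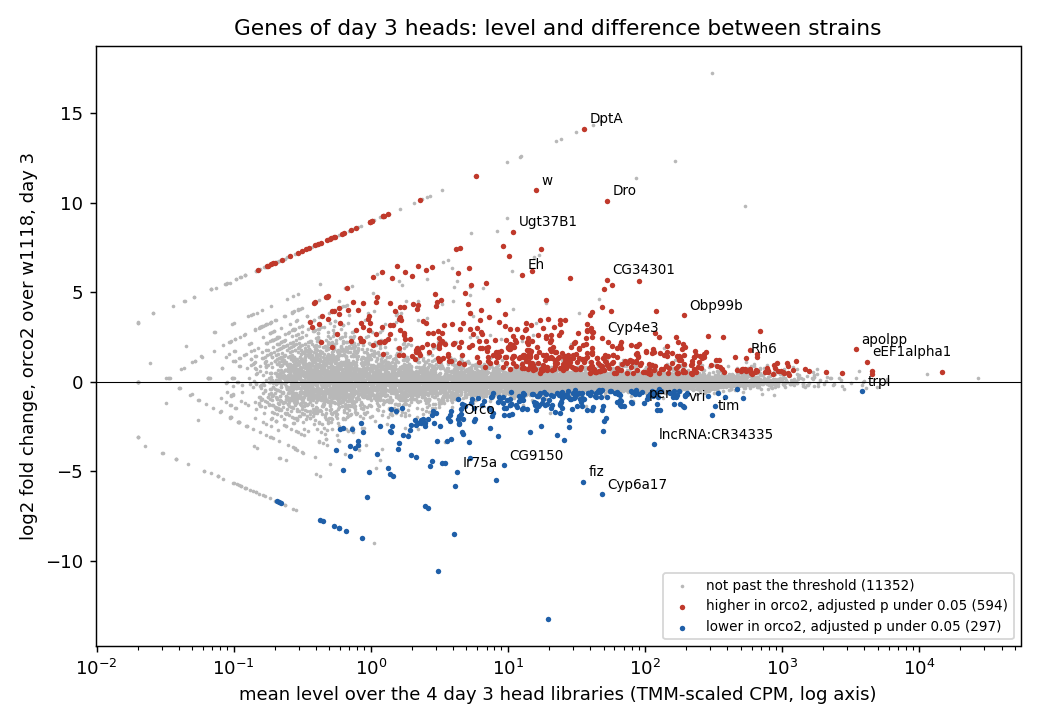
Mean level over the 4 libraries (CPM, log axis) and log2 fold change of orco2 over w1118 for the 12243 tested genes, with the 594 higher and 297 lower genes in colour. Points on the outer diagonals are genes with counts in 1 strain only, whose plotted size depends on the prior count of the fit; the gray points at the top include the gut genes of orco2 replicate 1.

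Of 8 genes of the core clock loop, 4 fell and 0 rose, with a median log2 fold change of -0.70 in a comparison in which 2.43% of all genes fell. These were tim, vri, per and cwo, the targets of CLK and CYC that encode repressors. Heads were taken at ZT8 only, so a lower level through the day and a shift in timing cannot be told apart. The tim gene, whose protein holds PER stable and is degraded by light, had 4578 and 2924 counts in orco2 and 16313 and 15593 in w1118. At 133 ± 33.9 CPM in orco2 against 489 ± 25.4 CPM in w1118 (SD, n = 2 each) it fell by 1.88 ± 0.18 on the log2 scale (adjusted p = 0.00109). The per gene had 1917 and 1411 counts in orco2 and 4414 and 4525 in w1118, or 59.3 ± 9.25 CPM against 137 ± 0.341 CPM, and fell by 1.21 ± 0.12 (adjusted p = 0.0014). In both genes the orco2 libraries lay far below w1118, replicate 2 lower than replicate 1. The vri gene, which encodes a repressor of Clk, had 3243 and 2648 counts in orco2 and 9016 and 8916 in w1118, a log2 fold change of -1.39 ± 0.11 (adjusted p = 0.000582). The cwo gene had 2254 and 1688 counts in orco2 and 4499 and 4443 in w1118, with -0.96 ± 0.13 (adjusted p = 0.00405). All 4 were called in every leave-one-out fit. Exons of per overlap those of dyw on the opposite strand, and exons of tim overlap a non-coding RNA gene there.

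The other 4 genes of the loop did not pass. Clk, the activator, had 2606 and 1553 counts in orco2 and 1445 and 1446 in w1118, so every orco2 library was above every w1118 library (0.74 ± 0.19, adjusted p = 0.0573). A fit without 1 orco2 library cannot show the spread between the 2. In such fits Clk was at 0.39 without orco2 replicate 1 and at 0.997 without orco2 replicate 2. Its partner cyc had 1067 and 939 counts in orco2 and 1311 and 1339 in w1118 (-0.18 ± 0.11, adjusted p = 0.37). Pdp1, an activator of Clk, had 23309 and 14365 counts in orco2 and 28829 and 30312 in w1118 (-0.44 ± 0.17, adjusted p = 0.194). The blue-light receptor gene cry had 6408 and 11779 counts in orco2 and 6683 and 7147 in w1118, where orco2 replicate 1 was close to w1118 and orco2 replicate 2 above it (0.64 ± 0.28, adjusted p = 0.225). Both moved with 1 library. Pdp1 was at -0.76 without orco2 replicate 1 and at -0.20 without orco2 replicate 2, and cry at 1.05 and 0.04. Of 14 genes of clock kinases, phosphatases and TIM degradation, such as dco, sgg and jet, 0 passed in either direction and the log2 fold changes ran from -0.28 to 0.23. In the fit without orco2 replicate 1, 1 of them was called higher and 5 lower, beside 25.1% of all genes called in that fit. The clock neuropeptide gene Pdf had 3598 and 4580 counts in orco2 and 5601 and 5159 in w1118 (-0.16, adjusted p = 0.61).

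**Figure D3:**
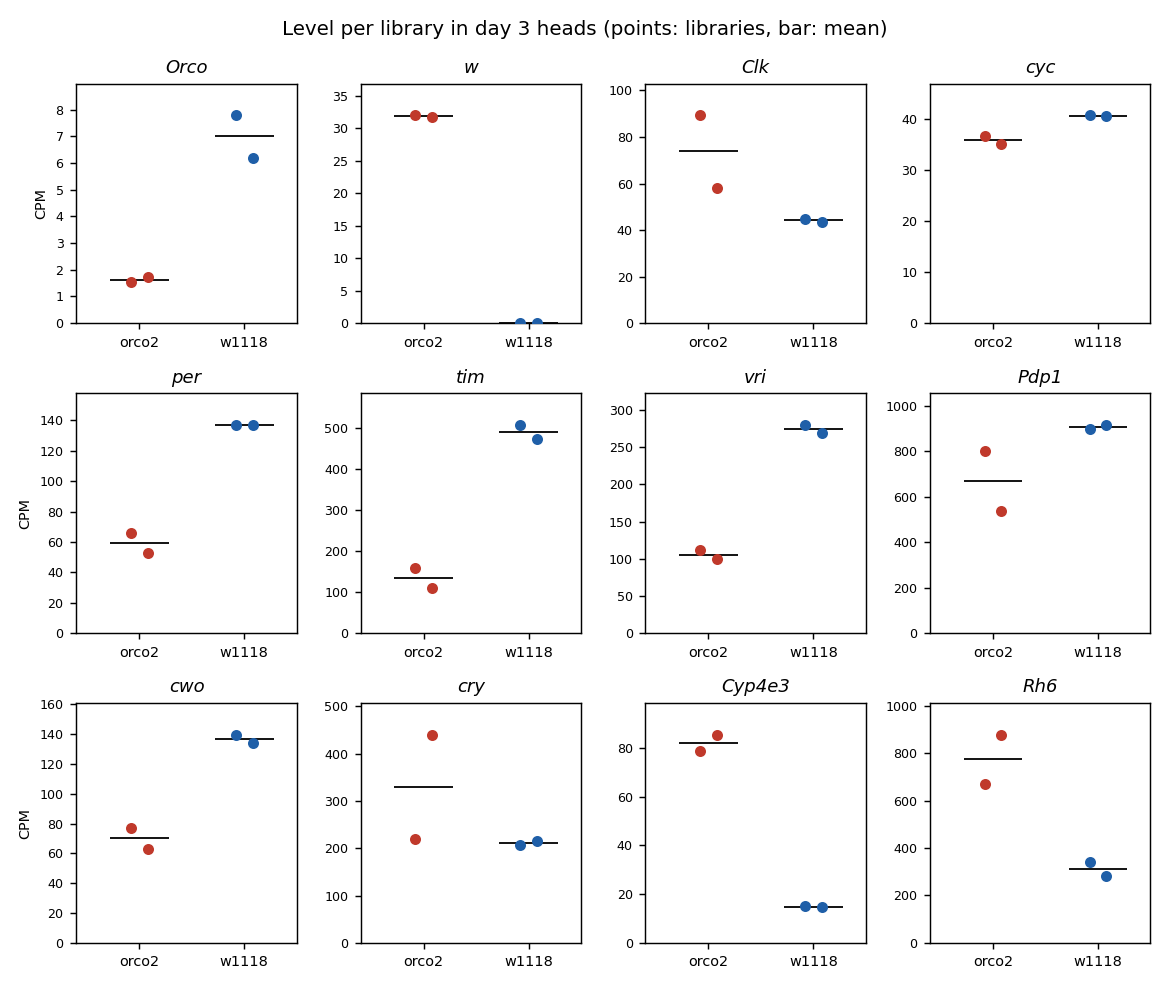
CPM of 12 genes in each library, orco2 left and w1118 right in each panel, with a bar at the mean. The repressor genes per, tim, vri and cwo lie below w1118 in both orco2 libraries, and Cyp4e3 and Rh6 lie above it, while the orco2 libraries of cry and Pdp1 lie far apart.

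Of 60 odorant receptor genes, 20 passed the filter on low counts, and of those Orco fell and Or82a rose. Or82a, a receptor of the antenna, had 181 and 279 counts in orco2 and 66 and 75 in w1118 (1.94 ± 0.28, adjusted p = 0.0058). Among those that did not pass were Or42a (49 and 49 counts in orco2, 12 and 16 in w1118, adjusted p = 0.053), Or22a (4 and 10 counts, against 27 and 31, adjusted p = 0.13) and Or43b (286 and 151 counts, against 217 and 222, adjusted p = 0.74). Without w1118 replicate 1, 0 odorant receptor genes were called, with Orco at -1.92 (adjusted p = 0.0525) and Or82a at 1.87 (adjusted p = 0.0715), and without w1118 replicate 2 only Orco was called (-2.26, adjusted p = 0.0233). Gustatory receptor genes, of which 20 of 60 were tested, gave 0 calls (0 to 1 in the leave-one-out fits).

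Ionotropic receptors form a second family of odour receptors, carried mostly by other antennal neurons that do not need Orco. Of 66 genes, 21 were tested, 0 rose and 4 fell (2.43% of all genes fell), with a median log2 fold change of -0.56. Ir75a, a receptor for acetic and other acids, had 12 and 2 counts in orco2 and 309 and 235 in w1118 (-5.05 ± 0.51, adjusted p = 0.00138). Its neighbour Ir75b had 6 and 6 counts in orco2 and 141 and 126 in w1118 (-4.23 ± 0.40, adjusted p = 0.0011). Both were nearly absent from orco2 heads and were called in every leave-one-out fit. Ir76a, an amine receptor, had 204 and 145 counts in orco2 and 409 and 566 in w1118 (-1.26 ± 0.21, adjusted p = 0.0104). Ir100a had 4 and 2 counts in orco2 and 30 and 56 in w1118 and was not called without orco2 replicate 2. The co-receptor genes Ir25a and Ir76b did not pass. Ir25a had 118 and 168 counts in orco2 against 273 and 232 in w1118 (-0.58, adjusted p = 0.29). Ir76b had 158 and 184 counts in orco2 against 221 and 242 in w1118 (-0.20, adjusted p = 0.61). The co-receptor gene Ir8a had 0 counts in every day 3 head library and was not tested.

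Odorant binding proteins are small carriers secreted by support cells of sensory hairs and by other tissues. Of 61 genes of binding proteins and olfactory support, 40 were tested, 6 rose and 4 fell, beside 4.85% and 2.43% of all genes. Obp99b, a carrier also made in fat body of the head, had 6513 and 13129 counts in orco2 and 585 and 1191 in w1118 (3.72 ± 0.48, adjusted p = 0.00322). Obp44a, which is abundant in glia, had 24610 and 28798 counts in orco2 and 11287 and 12502 in w1118, 961 ± 164 CPM against 364 ± 19.0 CPM (1.40 ± 0.15, adjusted p = 0.00187). Obp8a (717 and 609 counts in orco2, 104 and 107 in w1118, 2.87 ± 0.16) and Obp57a (796 and 945 counts in orco2, 80 and 108 in w1118, 3.44 ± 0.33) rose as well. Of the 4 that fell, Obp56h had 134 and 70 counts in orco2 and 917 and 742 in w1118 (-2.81 ± 0.27, adjusted p = 0.00114), and Obp19c had 146 and 131 counts in orco2 and 465 and 439 in w1118 (-1.48 ± 0.16). Obp99a (4 and 2 counts in orco2, 48 and 45 in w1118) and Obp99d (10 and 14 counts, against 80 and 79) were low throughout. Without w1118 replicate 1 or 2, 5 and 6 genes of the list were called higher and 2 and 2 lower, and without orco2 replicate 2 the count lower was 11. Among 25 genes of ciliated sensory neurons, 2 rose and 0 fell, beside 4.85% and 2.43% of all genes. Of the 2, chp is a photoreceptor gene and tilB (55 and 51 counts in orco2, 16 and 10 in w1118) builds motile cilia. Both calls were lost without w1118 replicate 1 and again without replicate 2. That of tilB, unlike that of chp, was also lost when an orco2 library was left out. The intraflagellar transport genes, which all ciliated neurons use, gave 0 calls.

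Of 36 genes of rhodopsins and phototransduction, 12 rose and 2 fell, beside 4.85% and 2.43% of all genes, with a median log2 fold change of 0.27. Rh6, the green opsin of R8 cells, had 19499 and 23504 counts in orco2 and 10924 and 9382 in w1118, or 774 ± 148 CPM against 311 ± 39.7 CPM (1.31 ± 0.15, adjusted p = 0.00228). The scavenger receptor gene ninaD, needed for carotenoid uptake, had 340 and 699 counts in orco2 and 100 and 149 in w1118 (2.31 ± 0.47, adjusted p = 0.0234). The other R8 opsin gene Rh5 had 10532 and 12363 counts in orco2 and 15685 and 18989 in w1118 and did not pass (-0.36, adjusted p = 0.21). The light-gated channel gene trp had 158050 and 147348 counts in orco2 and 117027 and 122703 in w1118 (0.57 ± 0.09, adjusted p = 0.00653), whereas trpl, which encodes the second channel, had 95429 and 80684 counts in orco2 and 146021 and 149354 in w1118 and fell by 0.52 ± 0.09 (adjusted p = 0.0123). The channel genes thus moved in opposite directions in the same libraries. The phospholipase C gene norpA (90144 and 88024 counts in orco2, 70242 and 77306 in w1118, 0.50 ± 0.09), the myosin kinase gene ninaC (0.45 ± 0.09), the arrestin gene Arr2 (0.55 ± 0.13), the retinoid-binding protein gene pinta (0.9999 ± 0.136) and stops (0.77 ± 0.11) rose. The lipid phosphatase gene laza had 2150 and 1776 counts in orco2 and 3600 and 3639 in w1118 and fell by 0.66 ± 0.10 (adjusted p = 0.0073). The main opsin gene ninaE had 961148 and 661578 counts in orco2 and 775618 and 885767 in w1118 (0.18, adjusted p = 0.48).

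Of the 10 genes of the photoreceptor marker list, 8 rose and 0 fell. All of the 10 but chp are also members of the phototransduction group, so this largely counts the same genes again. The summed level of the list was given above, and its part in the single changes was not tested. Without w1118 replicate 1, 1 phototransduction gene was called higher, and 2 were without w1118 replicate 2, with Rh6 among them in both; without orco2 replicate 1 or 2, 19 and 13 were called higher. Among 19 eye pigment genes, 3 rose and 2 fell, beside 4.85% and 2.43% of all genes. Beside w, the tryptophan oxygenase gene v of the brown pigments had 752 and 1099 counts in orco2 and 322 and 370 in w1118 (1.66 ± 0.22, adjusted p = 0.0039), and the phenylalanine hydroxylase gene Hn rose by 1.19 ± 0.26 but was not called without orco2 replicate 2. Of the pteridine genes of the red pigments, Pu, the GTP cyclohydrolase, had 6832 and 8415 counts in orco2 and 15407 and 16843 in w1118 (-0.85 ± 0.16, adjusted p = 0.0193), and se had 1867 and 2195 counts in orco2 and 5411 and 5720 in w1118 (-1.22 ± 0.15, adjusted p = 0.00257). Exons of se overlap those of GstO2 on the opposite strand.

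Of 39 tested genes of neuropeptides and their receptors, 2 rose and 1 fell (7.69% called, beside 7.28% of all genes). The fat body and gut peptide gene CCHa2 had 8656 and 4712 counts in orco2 and 2121 and 2926 in w1118 (1.62 ± 0.26, adjusted p = 0.00997), and Nplp2 had 26425 and 28595 counts in orco2 and 8005 and 14108 in w1118 (1.55 ± 0.32, adjusted p = 0.0242). Nplp4 had 79 and 73 counts in orco2 and 223 and 223 in w1118 (-1.33 ± 0.25, adjusted p = 0.0195). Without w1118 replicate 1, 0 genes of that list were called, and without w1118 replicate 2, 3 higher and 0 lower. Outside that list, Eh, the eclosion hormone gene of ventromedial neurons, had 631 and 767 counts in orco2 and 16 and 10 in w1118. At 25.2 ± 4.96 CPM in orco2 against 0.3997 ± 0.138 CPM in w1118 it rose by 5.97 ± 0.46 (adjusted p = 0.000464) and was called in every leave-one-out fit. Of 19 genes of dopamine, serotonin and octopamine, Dop2R, an inhibitory dopamine receptor, had 5626 and 5258 counts in orco2 and 2028 and 2164 in w1118 (1.60 ± 0.15, adjusted p = 0.00101), and the beta-alanyl amine synthase gene e, used by glia and cuticle, had 916 and 964 counts in orco2 and 495 and 623 in w1118 (0.98 ± 0.15, adjusted p = 0.0076). The enzyme gene ple and the transporter gene DAT did not pass (0.01 and 0.14). Of 18 neuron marker genes, cac, the voltage-gated calcium channel of the synapse, had 6363 and 3796 counts in orco2 and 14838 and 15492 in w1118 (-1.37 ± 0.21, adjusted p = 0.00691), and 17 did not pass. With orco2 replicate 1 left out, 9 of the 18 were called lower, and without w1118 replicate 1, 0 were called. The 5 activity-regulated transcription factor genes, Hr38, sr, kay, Jra and cbt, gave 0 calls, with log2 fold changes between -0.43 and 0.21.

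Of 39 tested genes of antimicrobial peptides and effectors, 11 rose and 0 fell (4.85% of all genes rose), and 35 had a positive log2 fold change, with a median of 1.33. These fell into 2 patterns by library. Peptide genes driven mainly by the Imd pathway were far higher in orco2 replicate 1 than in replicate 2: Dro had 5765 and 382 counts in orco2 and 6 and 0 in w1118 (10.11 ± 2.09, adjusted p = 0.0252), and DptA had 4029 and 155 counts in orco2 and 0 and 0 in w1118, which with 3 counts taken as the floor of a whole group makes it at least 1629-fold higher. From orco2 replicate 2 alone, with its 155 counts, the bound was at least 126-fold higher. DptB (1929 and 75 counts in orco2, 2 and 11 in w1118, 7.41 ± 1.69) and AttC (3105 and 151 counts in orco2, 18 and 47 in w1118, 5.82 ± 1.37) were of the same kind. Orco2 replicate 1 is the library with the gut transcripts, and their part in these values was not tested. By counts in orco2 replicate 2, these 4 genes lay above both w1118 libraries, and of the relatives below, CecA1 did and Mtk did not. The call of AttC was lost without orco2 replicate 1 (adjusted p = 0.0552). Those of all 4 were lost with limma-voom, and DptA and Dro had adjusted p between 0.167 and 0.186 when 1 of the w1118 libraries was left out. Relatives with the same pattern did not pass, as CecA1 (310 and 6 counts in orco2, 0 and 0 in w1118, adjusted p = 0.087) and Mtk (576 and 20 counts in orco2, 28 and 25 in w1118, adjusted p = 0.14).

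Bomanin genes, short peptide genes driven by the Toll pathway, included members that rose with counts in orco2 replicate 2 near or above those in replicate 1. BomBc2 had 3409 and 7928 counts in orco2 and 934 and 1139 in w1118 (2.70 ± 0.40, adjusted p = 0.00629), and BomBc1 had 592 and 1175 counts in orco2 and 97 and 170 in w1118 (2.98 ± 0.41, adjusted p = 0.00444). BomS2 (1664 and 1906 counts in orco2, 706 and 963 in w1118, 1.33 ± 0.18) and BomT2 (649 and 614 counts in orco2, 181 and 264 in w1118, 1.73 ± 0.20) were called in every leave-one-out fit. BomS6 had 405 and 893 counts in orco2 and 126 and 159 in w1118 and rose by 2.44 ± 0.47 (adjusted p = 0.0196). BomS3, with 1704 and 1552 counts in orco2 and 1693 and 1936 in w1118, did not pass. Without orco2 replicate 1 or 2, 16 and 21 effector genes were called higher and 2 and 2 lower, and without w1118 replicate 1 or 2, 2 and 3 were called higher. Of 38 genes of the Toll and Imd pathways, 7 rose and 2 fell, beside 4.85% and 2.43% of all genes. The recognition protein genes PGRP-SB1 (1495 and 787 counts in orco2, 182 and 247 in w1118, 2.62 ± 0.33), PGRP-LA (3840 and 2946 counts, against 2064 and 2032, 0.95 ± 0.12) and PGRP-LC (0.70 ± 0.12) and the Imd inhibitor gene pirk (273 and 213 counts in orco2, 89 and 130 in w1118, 1.37 ± 0.20) rose. The adaptor gene imd had 513 and 564 counts in orco2 and 1681 and 1572 in w1118 (-1.37 ± 0.16, adjusted p = 0.00212), and the Toll ligand gene spz fell by 0.66 ± 0.13. Exons of imd overlap those of GstE9 on the opposite strand, whose counts moved the other way (2435 and 3666 in orco2, 1623 and 1674 in w1118), and no source used here says that strand was used in counting. Among 11 genes of the Turandot family and JAK-STAT signalling, TotA (2955 and 2189 counts in orco2, 472 and 1057 in w1118, 1.98 ± 0.48, adjusted p = 0.0496) and Stat92E (0.55 ± 0.12) rose, and 0 of them were called without w1118 replicate 1 or without replicate 2. Of 21 heat shock protein genes, Hsp70Ab alone passed, at 30 and 69 counts in orco2 and 2 and 7 in w1118, and reads of near-identical Hsp70 copies may be split among them.

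Of 18 genes of fat body secretion, 9 rose and 0 fell, beside 4.85% and 2.43% of all genes. Their median log2 fold change was 1.44, beside 0.0147 over all genes. The lipoprotein gene apolpp, whose product carries lipid in the haemolymph, had 130643 and 168072 counts in orco2 and 42700 and 56788 in w1118, or 5386 ± 1271 CPM against 1521 ± 275 CPM (1.82 ± 0.21, adjusted p = 0.00197). The larval storage protein gene Lsp1beta had 5702 and 6773 counts in orco2 and 253 and 715 in w1118 (3.93 ± 0.47, adjusted p = 0.00239), and Lsp2 had 4247 and 1033 counts in orco2 and 152 and 188 in w1118 (4.15 ± 0.60, adjusted p = 0.00562). The feeding-regulated gene fit, which is also female-biased, had 293 and 372 counts in orco2 and 29 and 20 in w1118 (3.99 ± 0.46, adjusted p = 0.00228). The iron carrier gene Tsf1 and the clotting gene fon rose by 1.05 and 0.93, and the yolk protein genes Yp1, Yp2 and Yp3 did not pass (Yp3 at 1390 and 1685 counts in orco2, 2204 and 2312 in w1118). The summed fat body marker list, given above, is no separate measure, because its tested genes are all members of this group. Most of its sum came from apolpp alone, at 4487 CPM for orco2 replicate 1 and 6284 CPM for replicate 2. For w1118 replicates 1 and 2, apolpp stood at 1327 and 1716 CPM. How far the amount of fat body in a sample entered the values of this group was not tested. Without orco2 replicate 1 or 2, 12 and 9 genes were called higher, and without w1118 replicate 1 or 2, 4 and 6. Of these, apolpp, Lsp1beta and fit were called in every leave-one-out fit.

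Of 28 genes of triglyceride synthesis, storage and lipolysis, 5 rose, 2 fell and 21 did not pass. Of all genes, 4.85% rose and 2.43% fell. The diacylglycerol acyltransferase gene mdy had 1525 and 1969 counts in orco2 and 637 and 659 in w1118 (1.67 ± 0.18, adjusted p = 0.00164) and was called in every leave-one-out fit. The fatty acid synthase gene FASN1 had 33606 and 46991 counts in orco2 and 21990 and 24551 in w1118 (1.03 ± 0.19, adjusted p = 0.0164), and the desaturase gene Desat1 had 40905 and 56400 counts in orco2 and 22471 and 28709 in w1118 (1.17 ± 0.23, adjusted p = 0.0204). The transfer protein gene Mtp rose by 0.67 ± 0.15 and was not called without orco2 replicate 2. Npc2b had 2436 and 2510 counts in orco2 and 5365 and 5148 in w1118 (-0.86 ± 0.14, adjusted p = 0.00951), and the low lipase gene Lip3 (26 and 15 counts in orco2, 72 and 65 in w1118) was not called without orco2 replicate 2. Without w1118 replicate 1 or 2, 1 gene of the list was called higher in each. Of 14 glycolysis genes, the fat body hexokinase gene Hex-C alone passed (1618 and 3108 counts in orco2, 880 and 1114 in w1118, 1.49 ± 0.36, adjusted p = 0.0452), and it was not called without orco2 replicate 2. Of 18 genes of sugar and insulin response, the alpha-glucosidase gene tobi had 89 and 14 counts in orco2 and 403 and 589 in w1118 (-3.06 ± 0.62, adjusted p = 0.0241), a call lost without w1118 replicate 1 and without w1118 replicate 2.

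Of 80 tested cytochrome P450 genes, which encode oxidases of detoxification and hormone metabolism, 15 rose and 4 fell (23.8% called, beside 7.28% of all genes). Cyp4e3 had 2296 and 2284 counts in orco2 and 483 and 489 in w1118, or 82.1 ± 4.63 CPM against 14.9 ± 0.169 CPM (2.46 ± 0.13, adjusted p = 7.88e-05). The neighbouring genes Cyp309a1 (1219 and 1458 counts in orco2, 124 and 165 in w1118, 3.44 ± 0.23) and Cyp309a2 (662 and 813 counts in orco2, 76 and 114 in w1118, 3.19 ± 0.23) rose together. Cyp6a17, an enzyme gene linked to temperature preference in flies, had 52 and 17 counts in orco2 and 3032 and 3276 in w1118, which is 1.21 ± 0.813 CPM against 96.6 ± 3.35 CPM (-6.30 ± 0.38, adjusted p = 0.000168). These 4 were called in every leave-one-out fit. Cyp12d1-p rose by 4.34 ± 0.38, and its reads may be shared with its near-identical copy Cyp12d1-d, which rose as well. Cyp313a5 had 0 and 0 counts in orco2 and 46 and 30 in w1118, at least 21.7-fold lower, and Cyp18a1, which inactivates ecdysteroids, had 132 and 95 counts in orco2 and 423 and 546 in w1118 (-1.87 ± 0.21, adjusted p = 0.00197). Without orco2 replicate 1 the list had 34 higher and 4 lower, without orco2 replicate 2 it had 17 and 11, and without w1118 replicate 1 or 2 it had 8 and 9 higher and 3 and 3 lower.

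Of 34 glutathione transferase genes, 3 rose and 1 fell (11.8% called, beside 7.28% of all genes). GstE1 had 1334 and 1503 counts in orco2 and 409 and 312 in w1118 (2.20 ± 0.22, adjusted p = 0.0012), and GstE4 had 21 and 8 counts in orco2 and 136 and 83 in w1118 (-2.70 ± 0.53, adjusted p = 0.0216). Of 27 UDP-glycosyltransferase genes, 4 rose and 2 fell (22.2% called). Ugt37B1 had 514 and 693 counts in orco2 and 0 and 4 in w1118 (8.38 ± 0.61, adjusted p = 0.000362), and Ugt302K1 had 11 and 18 counts in orco2 and 353 and 310 in w1118 (-4.27 ± 0.35, adjusted p = 0.000632). Of 17 genes handling reactive oxygen, Duox fell by 0.56 ± 0.13 and was not called without orco2 replicate 2, and the others did not pass.

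Of 83 cytosolic ribosomal protein genes, 24 rose and 0 fell, beside 4.85% and 2.43% of all genes. In 82 the log2 fold change was positive, and the median was 0.52. RpLP1 of the ribosomal stalk had 27061 and 37217 counts in orco2 and 18680 and 20743 in w1118 (0.94 ± 0.19, adjusted p = 0.0221), and RpS21 had 7925 and 9440 counts in orco2 and 5904 and 5742 in w1118 (0.81 ± 0.15, adjusted p = 0.0186). The elongation factor gene eEF1alpha1 had 140730 and 174921 counts in orco2 and 77390 and 95322 in w1118 (1.11 ± 0.16, adjusted p = 0.00653). The calls of ribosomal protein genes were all lost without w1118 replicate 1, and again without w1118 replicate 2. Those fits also called a smaller share of all genes, as given above, so the loss was not limited to this group. Without orco2 replicate 1, and again without orco2 replicate 2, calls remained in the group, and a larger share of all genes was called. Mitochondrial ribosomal protein genes (72), oxidative phosphorylation genes (74), proteasome genes (33) and genes of juvenile hormone and ecdysone (18) gave 0 calls by edgeR. When orco2 replicate 1 was left out, 19 oxidative phosphorylation genes and 16 proteasome genes were called higher, and 10 and 0 lower, in a fit that called 13.4% of all genes higher and 11.7% lower.

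**Figure D4:**
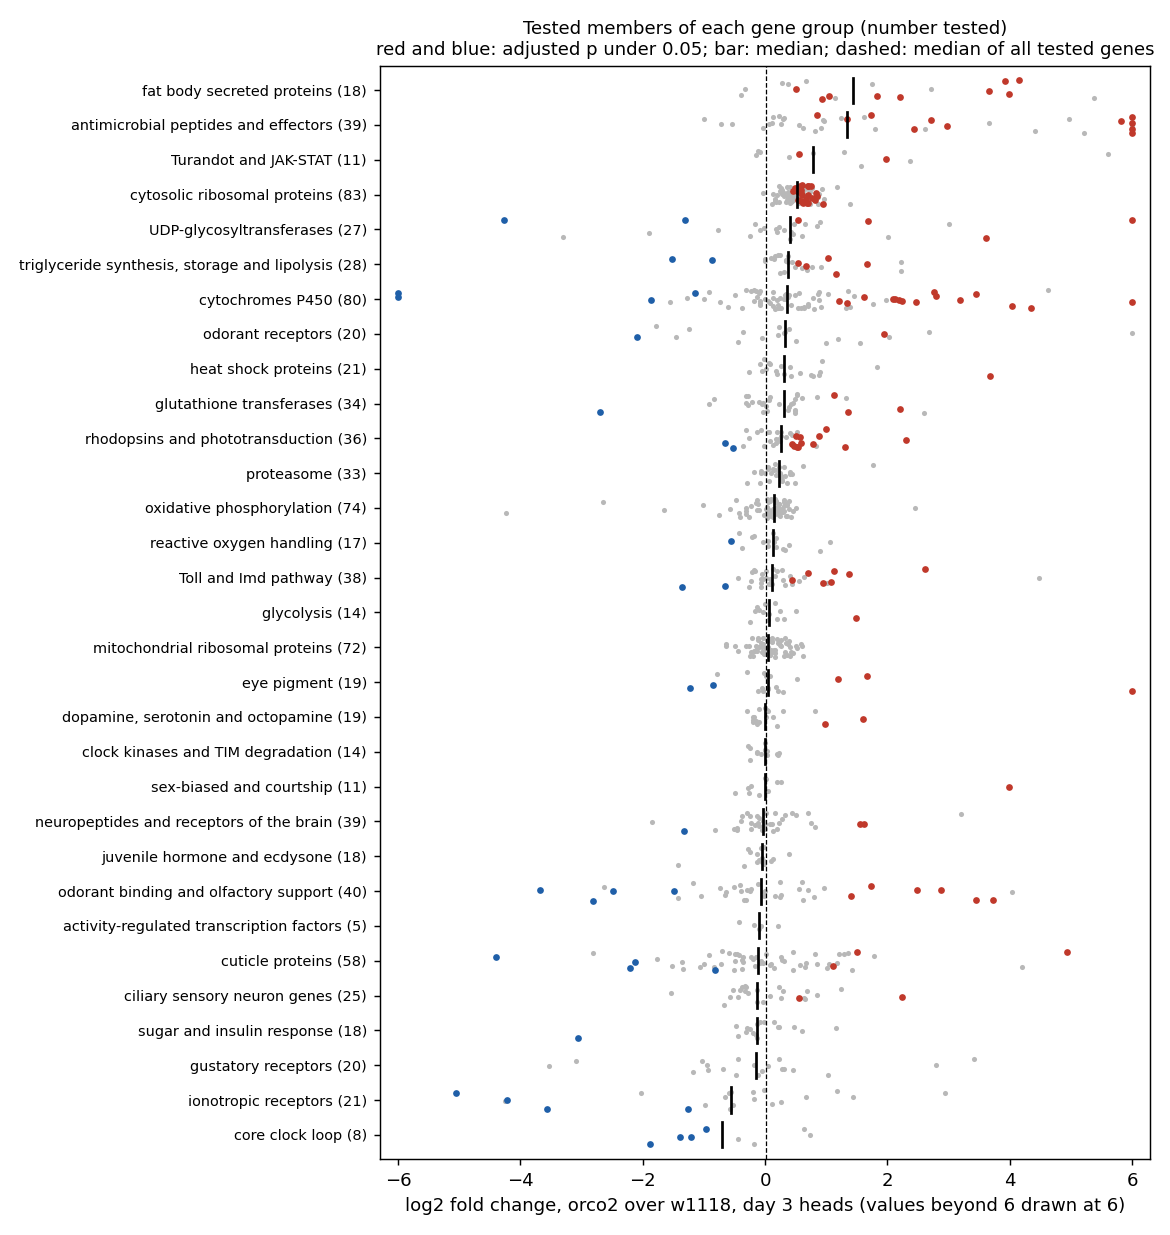
Log2 fold change of each tested member of 31 gene groups, ordered by the group's median (bar); members past the threshold are in colour and the dashed line is the median of all tested genes. Fat body secreted proteins (median 1.44) and immune effectors (1.33) lie at the top, and the core clock loop (-0.70) and ionotropic receptors (-0.56) at the bottom.

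Genes outside these groups with at least 5 CPM on average also changed. CG34301 had 3204 and 2583 counts in orco2 and 49 and 82 in w1118 (5.69 ± 0.22, adjusted p = 1.83e-05), and CG8665, a folate enzyme gene by homology, had 2877 and 6802 counts in orco2 and 91 and 140 in w1118 (5.64 ± 0.49). The non-coding RNA lncRNA:CR40469 had 653 and 993 counts in orco2 and 11 and 16 in w1118 (6.16 ± 0.32, adjusted p = 6.52e-05). The kinase-like gene CG4839 (322 and 258 counts in orco2, 8 and 0 in w1118) and CG30428 (483 and 540 counts in orco2, 6 and 0 in w1118) were nearly without reads in w1118. Among those that fell, fiz (fezzik), an oxidoreductase gene whose expression varies between natural strains, had 46 and 35 counts in orco2 and 2208 and 2347 in w1118 (-5.59 ± 0.51, adjusted p = 0.000989). The non-coding RNA lncRNA:CR34335 had 533 and 523 counts in orco2 and 6579 and 7294 in w1118 (-3.49 ± 0.12, adjusted p = 1.83e-05), and lncRNA:CR45973 had 20 and 0 counts in orco2 and 491 and 567 in w1118 (-5.51 ± 0.79). CG9150 had 26 and 14 counts in orco2 and 598 and 577 in w1118 (-4.65 ± 0.56), and the gap gene gt had 40 and 11 counts in orco2 and 311 and 310 in w1118 (-3.40 ± 0.57). The sodium/proton antiporter gene Nha1 had 242 and 470 counts in orco2 and 3159 and 2496 in w1118 (-2.75 ± 0.34), and CG17005 had 162 and 124 counts in orco2 and 1543 and 1079 in w1118 (-2.98 ± 0.33). Apart from CG4839 and gt, these 12 genes were called in every leave-one-out fit. Of 58 tested cuticle protein genes, 3 rose and 4 fell, beside 4.85% and 2.43% of all genes. Cpr49Ag had 615 and 383 counts in orco2 and 2554 and 2821 in w1118 (-2.21 ± 0.19), Cpr62Bb fell by 2.12 ± 0.15, and Ccp84Ag had 222 and 304 counts in orco2 and 10 and 10 in w1118 (4.93 ± 0.85).

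Position relative to Orco was examined because the alleles differ there. Within 250 kb of the start of Orco, 2 of 92 tested genes changed (2.17%), between 250 and 500 kb 4.08%, between 500 and 1000 kb 5.1%, between 1000 and 2000 kb 8.28%, between 2000 and 4000 kb 5.65% and beyond 4000 kb on the same arm 8%, beside 7.28% over the genome. The 6 called genes nearest to it were NKCC, Osi2, Osi8, cas, plx and spartin. The cotransporter gene NKCC had 2192 and 2528 counts in orco2 and 4696 and 4849 in w1118 (-0.78 ± 0.13, adjusted p = 0.00979), and plx, a Rab GTPase-activating protein gene, had 3058 and 2817 counts in orco2 and 9215 and 9048 in w1118 (-1.41 ± 0.11, adjusted p = 0.00051). Osi2 had 1589 and 1579 counts in orco2 and 353 and 532 in w1118 (2.07 ± 0.20, adjusted p = 0.0011). By chromosome, between 4.67% (the fourth) and 7.76% (2L) of tested genes changed. Among 1176 tested transposon insertions, 72 were higher and 26 lower, with 12 and 3 of 352 INE-1 insertions and 11 and 0 of 105 roo insertions. Reads of near-identical insertions cannot be assigned to 1 copy, and an insertion at a given site may be present in 1 stock only, so these values do not measure the activity of a family. Exons of 244 of the 891 called features overlap exons of another annotated gene or insertion, as do those of 4223 of all tested ones.

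The same strains were read again at day 40 in other libraries. Of the 891 features changed at day 3, 850 had the same sign at day 40, 626 were called in the same direction (13% of all tested genes changed at day 40) and 4 in the other, while 261 did not pass there. The clock repressor genes were among those called at both ages, with log2 fold changes at day 40 of -2.35 for tim, -1.82 for per, -1.99 for vri and -1.02 for cwo. The difference of the strain effect between the ages, tested as an interaction, passed for 1 of 12243 genes (0.00817%). That gene was Cyp4e3, higher in orco2 by 2.46 at day 3 and at -0.22 at day 40 (adjusted p = 0.27). Several genes called at day 3 were not past the threshold at day 40, but their interaction did not pass, so the effects are not shown to differ: fiz stood at -1.46 (adjusted p = 0.0517), Lsp1beta at 0.79 (adjusted p = 0.24), fit at 0.03 (adjusted p = 0.97), Obp99b at -0.86 (adjusted p = 0.23), Rh6 at 0.24 (adjusted p = 0.32) and Dro at 2.32 (adjusted p = 0.25) at day 40. Of the phototransduction genes, 4 were called higher and 4 lower at day 40, with trpl lower again (-1.23, adjusted p = 0.00041).

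**Figure D5:**
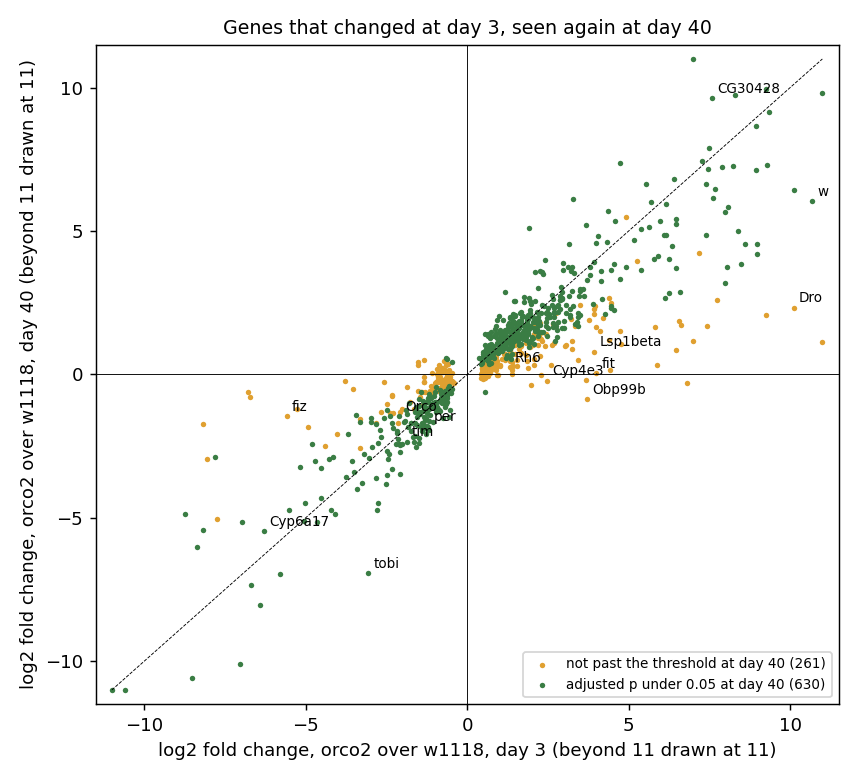
Log2 fold change of orco2 over w1118 at day 3 and at day 40 for the 891 features that changed at day 3, with the line of equality. The 261 features not past the threshold at day 40 are in orange, among them Dro, Obp99b, fit, Lsp1beta, Rh6 and Cyp4e3 near the horizontal axis, and the features called at both ages are in green, among them tim and Cyp6a17.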

How the data were processed

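Libraries were made from polyadenylated RNA, per the labels' protocols, whose steps name no marking of strand. The head table holds raw read counts per feature as deposited, made with fastp, HISAT2 and featureCounts against dm6, per the submitters' processing notes, which also name DESeq2. Versions, annotation release and settings for strand and shared reads are not given in the sources used here. Of 23882 features, 23801 matched the Ensembl BDGP6 annotation, and 81 were kept under their own identifiers. In the 4 day 3 libraries 62.6 to 66.7% of counts from 1 to 20 were even, so counting intervals may be too narrow.

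All 8 head libraries were fitted together by group in edgeR 4.0.16 (R 4.3.3) with TMM scaling, filterByExpr at a minimum count of 10 and the quasi-likelihood test. The day 3 contrast is orco2 over w1118, and the interaction is the day 40 effect minus the day 3 effect. Levels are TMM-scaled CPM. A floor of 3 counts over a group was used against groups with none. On simulated day 3 data of 11892 genes, edgeR recovered 45 of 100 genes changed 2-fold and 67 of 100 changed 4-fold, with 9 false calls. The simulation gave each gene the same spread in both strains, while the real orco2 libraries lay further apart than the w1118 ones. Recovery and false calls in the real data were not measured.

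The members and the 31 gene groups and 10 marker lists were chosen with earlier results of these data known. Genes named are Orco, w and the clock loop; the 12 highest and 12 lowest fold changes among called genes of at least 5 CPM, insertions left out; up to 4 called members of each group and direction; the 6 called genes of highest level in each direction; the 6 called genes nearest to Orco; and the 6 widest gaps between libraries of each strain. Others, mostly members of groups that did not pass, were named after their values were seen. Alternatives were DESeq2 1.42.0 size factors and Wald test, limma-voom (limma 3.58.1), no filter, a stricter filter, only the day 3 libraries, a test against a fold of 1.5, a replicate block, and each library left out in turn. Counts of group members without 1 library were added after the data were seen. Promoter sequences are not used here.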

Additional observations from a re-analysis of the deposited data

Results flagged for a closer look

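The effect of strain on Cyp4e3, a cytochrome P450 gene, differed between the ages by the interaction test. It had 2296 and 2284 counts in orco2 and 483 and 489 in w1118 at day 3, a log2 fold change of 2.46 ± 0.13, and stood at -0.22 at day 40. The day 40 effect minus the day 3 effect was -2.69 (adjusted p = 0.0053 by edgeR), the only one of 12243 genes past the threshold, while 1215 had an unadjusted p under 0.05. When w1118 replicate 1 or replicate 2 of day 3 was left out, the interaction was called for 0 genes.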

How the results depend on the processing

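The day 3 count of 891 changed genes (594 higher, 297 lower) was within 1.5 times of itself with DESeq2 size factors, a stricter filter, limma-voom and the replicate block. It was 1354 without a filter (929 higher), 1506 with the DESeq2 Wald test (985 higher, 521 lower), 347 with only the day 3 libraries (231 and 116) and 410 against a fold of 1.5 (279 and 131). With 1 day 3 library left out it ran from 278 to 3246, the count higher from 175 to 1727 and the count lower from 103 to 1519, and the lone library was then assumed to vary like the other groups. The lone orco2 or w1118 library shows no spread of its own, and how that entered the counts was not tested. The interaction, with 1 gene (0 higher, 1 lower), had 176 without a filter (65 and 111), 186 with the DESeq2 Wald test (100 and 86), and from 0 to 408 with 1 library left out (0 to 264 higher, 0 to 144 lower). The cause was not tested. Of the 123 named genes that changed, 51 were called under every alternative and 0 changed sign. Genes that had not passed did change sign: 28SrRNA-Psi:CR45860 was at -0.61 under the replicate block, and with 1 library left out it ran from -2.93 to 2.89, CG33109 from -1.15 to 6.64, CG34220 from -2.18 to 10.79, Cyp4g1 from -1.89 to 7.51 and Muc68D from -4.02 to 16.30. With the replicate number as a block, 745 genes changed (506 higher, 239 lower), 727 of them also among the 891. Same-numbered orco2 and w1118 libraries of day 3 deviated with a correlation of 0.0205. With 2 libraries a group and no label on how replicates were made, this cannot settle whether they shared a preparation. Of 60 odorant receptor genes, 20 passed the filter on low counts and the others were not tested. The bound on DptA from each orco2 library alone, an alternative chosen after seeing the data, was at least 3010-fold higher from replicate 1 and at least 126-fold higher from replicate 2.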

Other observations

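Calls were also counted along the chromosomes. Among 8823 pairs of neighbouring tested genes that do not overlap, both were called in 102 pairs, the same way in 73 (51 higher, 22 lower in orco2) and opposite ways in 29. The next gene along was called for 15.7% of called genes and for 6.77% of the others. Examples, chosen after their values were seen, are Cyp309a1 and Cyp309a2 (55 bp apart, 3.44 and 3.19), CG9147 and CG9150 (-0.75 and -4.65), the cuticle genes Cpr49Ae, Cpr49Af and Cpr49Ag (-0.82, -4.40 and -2.21) and the mannosidase genes LManI and LManII (1.02 and 1.44). No test was made of this difference.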
